A study of Mus musculus with 6 samples.

Results

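The 10 endocrine progenitor transcription factors Neurog3, Fev, Pax4, Mnx1, Insm1, Myt1, St18, Glis3, Sox4 and Sox11 were compared between mouse islet cells with and without a history of Wnt4 expression. They were chosen by name, and every probe on the array whose RefSeq transcript belongs to one of them was used. This gave 17 of 56605 probes and 10 of the 45616 genes and transcripts tested. All pups were Wnt4eGFPCre; mTmG, bred into C57BL/6J and kept under specific pathogen-free conditions, and were at postnatal day 1 (P1). In them an eGFP and Cre knock-in reports the Wnt4 locus, and Cre switches the mTmG reporter from membrane tdTomato to membrane GFP (mGFP) for good, so mGFP marks cells that express or have expressed Wnt4, α-cells among them. Islets were hand-picked and dissociated, and mGFP+ (Wnt4hi, labelled GFPpositive) and mGFP- (Wnt4low, labelled GFPnegative) cells were sorted by FACS. There were 3 arrays of each population, Wnt4hi replicates 2, 3 and 4 and Wnt4low replicates 1, 3 and 4. Each array held 1 sample from pooled pups, 3 pups for replicate 4 of either population and 4 pups for the others. Whether the mGFP- gate was restricted to endocrine cells is not given in the sources used here, and markers of other islet cell types are given below.

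During development, endocrine cells of the pancreas arise from epithelial cells of the duct-like trunk in which Neurog3 is switched on for a short time. Neurog3 is a basic helix-loop-helix factor that binds E-boxes, the short motif CANNTG, and starts a cascade of further regulators, among them Insm1, Pax4, Fev, Myt1 and Neurod1. Some of these factors fade as hormone-producing cells mature, while others, such as Insm1, Myt1, Glis3 and Mnx1, are also used by differentiated islet cells.

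The sequences before the transcription start are shown for Neurog3, at the head of the cascade, and for the 3 factors that passed the threshold between the populations (Fev, Myt1 and Sox11). Each line gives the 250 bases upstream of 1 annotated start (RefSeq, GRCm38.p6), 5′ to 3′ on the strand of the gene, in lower case with every E-box CANNTG in capitals. The motif reads the same on both strands.
Neurog3, chr10:62132840-62133089 (+): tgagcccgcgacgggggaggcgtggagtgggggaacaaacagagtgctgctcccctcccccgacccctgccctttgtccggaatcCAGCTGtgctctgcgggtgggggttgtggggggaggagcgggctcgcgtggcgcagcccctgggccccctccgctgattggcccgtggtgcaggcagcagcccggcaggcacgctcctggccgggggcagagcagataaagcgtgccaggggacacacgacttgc
Fev, chr1:74885409-74885658 (-): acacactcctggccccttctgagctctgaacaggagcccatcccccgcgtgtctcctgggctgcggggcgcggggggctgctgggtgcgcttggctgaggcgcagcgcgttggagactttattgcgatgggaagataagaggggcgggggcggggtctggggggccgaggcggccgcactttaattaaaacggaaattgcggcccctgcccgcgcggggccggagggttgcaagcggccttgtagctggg
Myt1, chr2:181763082-181763331 (+): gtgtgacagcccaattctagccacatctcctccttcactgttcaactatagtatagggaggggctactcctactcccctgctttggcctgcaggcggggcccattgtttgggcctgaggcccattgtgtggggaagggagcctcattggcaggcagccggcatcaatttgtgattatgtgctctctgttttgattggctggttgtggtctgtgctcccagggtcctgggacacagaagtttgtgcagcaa
Sox11, chr12:27342719-27342968 (-): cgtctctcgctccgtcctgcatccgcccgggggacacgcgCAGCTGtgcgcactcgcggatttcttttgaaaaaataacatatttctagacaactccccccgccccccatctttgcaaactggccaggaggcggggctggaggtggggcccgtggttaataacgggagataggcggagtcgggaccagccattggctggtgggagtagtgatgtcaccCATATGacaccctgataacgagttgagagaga
The Neurog3 window held 1 E-box, CAGCTG, which began 165 bases upstream of the start. The Sox11 window held CAGCTG at 210 bases and CATATG at 32 bases upstream. The window of Fev and the printed window of Myt1 held 0. Myt1 has 2 further annotated starts, whose windows held CATTTG at 191 and 129 bases and CATGTG at 114 bases upstream. The table of promoters had windows for 7 of the 10 factors, all but Insm1, Pax4 and St18, 9 windows in all, and 7 of these 9 held an E-box, beside 66.2% of 32851 windows of the same length over all genes. The form CAGATG, read as CATCTG on the other strand, was in 0 of the factors' windows and in 14.4% of all windows. A match is a description of these letters and does not mark a bound site.

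Values are log2 intensities after background correction (normexp, offset 50) and quantile normalization between arrays. A log2 fold change is Wnt4hi minus Wnt4low, so a value of 1 is a doubling in Wnt4hi cells. Tests are limma's moderated test over all 45616 features, at the unadjusted p threshold of 0.05 that the methods used and after Benjamini-Hochberg adjustment. Where a gene had several probes, the brightest probe on average stands for it, and the others are given beside it. Levels of different probes are not compared, since probes differ in brightness. Replicates of a population were separate samples of pooled pups, so p-values measure the spread between such samples. Whether same-numbered samples of the populations came from the same pups is not given in the sources used here. The 3 arrays per population limit the precision, and by exact permutation they could not reach a two-sided p under 0.1.

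Of the 10 factors, 2 were higher in Wnt4hi cells at the unadjusted threshold (Myt1 and Fev) and 1 was lower (Sox11), beside 5.06% and 5.53% of all features. After adjustment limma called 0 of the 10, beside 0.0351% of all features higher and 0.406% lower. The log2 fold change was above 0 for 7 of the 10, beside 63.6% of all features, and its median was 0.56, beside 0.073 over all features. Every Wnt4hi array lay above every Wnt4low array for 3 factors (Myt1, Fev and Insm1; 9.63% of all features) and below for 1 (Sox11; 6.44%). In sorted bulk samples, fewer cells that express a gene and less of its RNA per cell cannot be told apart, and this holds for every difference below. All 10 factors were well above background on at least 2 of 3 arrays of each population by the probe that stands for them, and 9 of them, all but Sox11, on all 6 arrays.

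**Figure D1:**
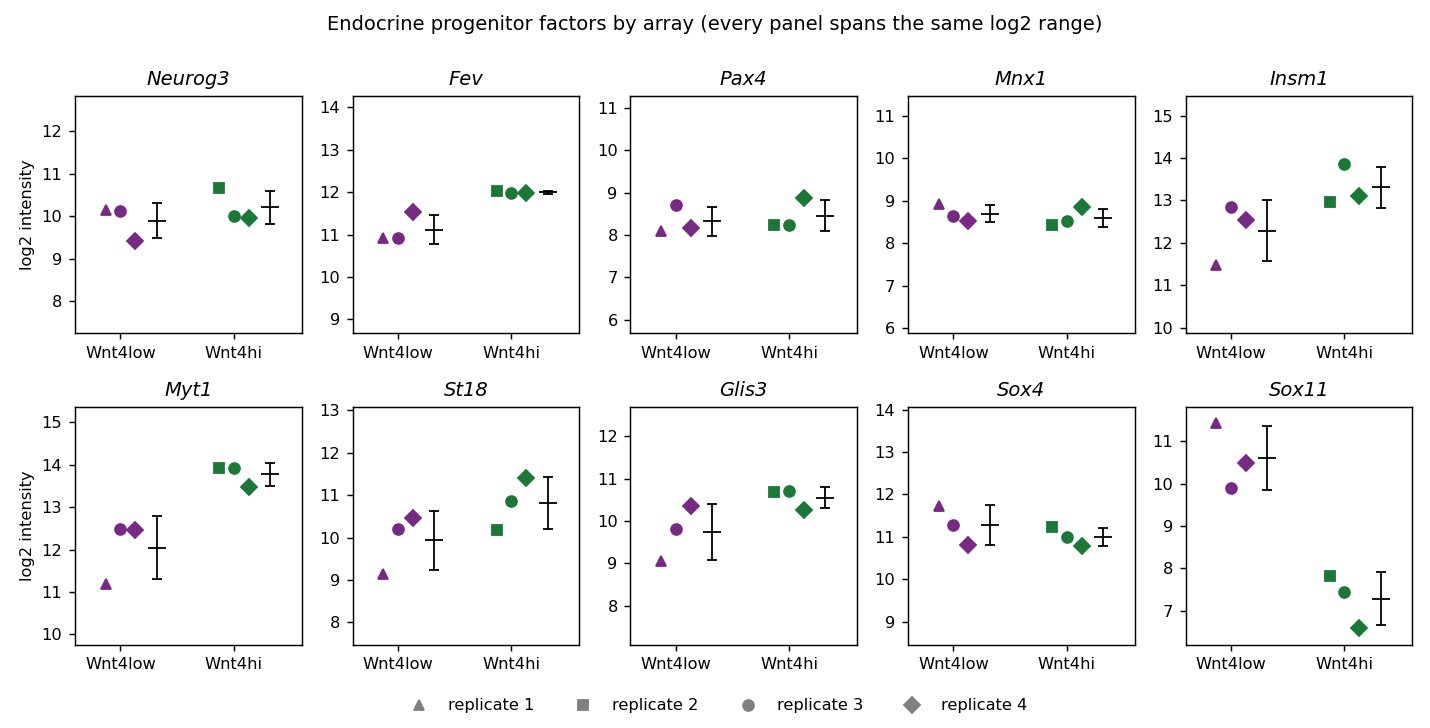
Log2 intensity of the 10 factors on each of the 6 arrays, Wnt4low in purple and Wnt4hi in green, with the marker shape giving the replicate number and the bar the mean ± SD of 3 arrays. Every panel spans the same log2 range at its own level, so spreads can be compared between panels but levels cannot. The populations are apart for Myt1, Fev, Insm1 and Sox11, and overlap for the other 6.

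Neurog3 (chr10:62133090-62134763, GRCm38.p6), which starts the endocrine programme, did not pass the test. Its log2 intensity was 10.66, 10.01 and 9.97 on Wnt4hi replicates 2, 3 and 4 and 10.14, 10.12 and 9.42 on Wnt4low replicates 1, 3 and 4. Wnt4hi replicate 2 was the highest array and Wnt4low replicate 4 the lowest, and the remaining 4 arrays lay together between them. The log2 fold change was 0.32, with a 95% confidence interval from -0.38 to 1.01 (standard error 0.29, unadjusted p = 0.308, adjusted p = 0.793 by limma). The interval holds both no difference and a doubling in Wnt4hi cells. Neurog3 was above 0 in all 21 alternative settings and under the p threshold in 0 of them, and its size rested on single arrays, at 0.094 without Wnt4hi replicate 2 and 0.082 without Wnt4low replicate 4.

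Fev (chr1:74881501-74885473), an ETS factor that follows Neurog3 in endocrine progenitors and specifies serotonin neurons in the brain, was higher in Wnt4hi cells. Its log2 intensity was 12.04, 11.97 and 11.99 on Wnt4hi replicates 2, 3 and 4 and 10.91, 10.93 and 11.52 on Wnt4low replicates 1, 3 and 4. The Wnt4hi arrays lay within 0.069 of each other, the narrowest range of any factor in either population, and all were above the Wnt4low arrays. Its log2 fold change was 0.88, a 1.84-fold difference (standard error 0.20, 95% confidence interval 0.40 to 1.36, unadjusted p = 0.00422, adjusted p = 0.169 by limma). The other probe read 9.31, 8.79 and 8.19 on the Wnt4hi arrays and 8.15, 8.04 and 7.79 on the Wnt4low arrays. It gave 0.77 (unadjusted p = 0.0415 by limma over all probes, of which 4.88% were higher and 6.12% lower at this threshold), and the lowest Wnt4hi array barely cleared the highest Wnt4low array. As a gene, Fev stayed past the unadjusted threshold under all 21 alternative settings, of which 1 averages the probes and 2 use the authors' own values, from 0.76 with the replicate number as a block to 1.08 without Wnt4low replicate 4. The other probe passed in 9 of 17, and in 1 of the 6 that left out an array, with its lowest value of 0.50 without Wnt4hi replicate 2.

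Pax4 (chr6:28442334-28449340), a paired homeodomain factor that favours β- and δ-cells over α-cells, and Mnx1 (chr5:29473823-29478470), a homeodomain factor needed for β-cells, did not pass the test. Pax4 was at 8.24, 8.24 and 8.87 on Wnt4hi replicates 2, 3 and 4 and at 8.09, 8.70 and 8.15 on Wnt4low replicates 1, 3 and 4. Of these arrays 4 lay close to the bottom of the range, and the other 2, Wnt4hi replicate 4 and Wnt4low replicate 3, came from either population. Pax4 had a log2 fold change of 0.13 (95% confidence interval -0.49 to 0.76, unadjusted p = 0.624, adjusted p = 0.914 by limma), and it was -0.078 without Wnt4hi replicate 4. Mnx1 was at 8.43, 8.51 and 8.85 on the Wnt4hi arrays and at 8.92, 8.64 and 8.52 on the Wnt4low arrays. These overlapped, and the range within a population was 0.41 and 0.40. Mnx1 had a log2 fold change of -0.098 (95% confidence interval -0.54 to 0.34, unadjusted p = 0.606, adjusted p = 0.908 by limma), and its sign turned in 4 alternative settings, with 0.016 without Wnt4low replicate 1 and 0.64 in the authors' own processed values.

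Insm1 (chr2:146221997-146225020), a zinc finger factor downstream of Neurog3, was apart between the populations but did not pass. Its log2 intensity was 12.95, 13.86 and 13.11 on Wnt4hi replicates 2, 3 and 4 and 11.48, 12.85 and 12.55 on Wnt4low replicates 1, 3 and 4. Wnt4low replicate 1 stood well under the other arrays, and the highest Wnt4low array lay only 0.11 under the lowest Wnt4hi array. The log2 fold change was 1.02 (standard error 0.42, 95% confidence interval -0.00063 to 2.03, unadjusted p = 0.0501, adjusted p = 0.473 by limma). In 12 of 21 alternative settings Insm1 passed. Without Wnt4low replicate 1 its log2 fold change was 0.61, and without Wnt4low replicate 3 it was 1.29.

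Myt1 and St18 belong to the same small family of zinc finger factors, which were named for myelin transcription factor 1, and Myt1 works together with Neurog3 in endocrine progenitors. Myt1 (chr2:181763332-181827775) was higher in Wnt4hi cells and had the largest difference in that direction among the 10 factors. Its log2 intensity was 13.93, 13.93 and 13.47 on Wnt4hi replicates 2, 3 and 4 and 11.19, 12.48 and 12.47 on Wnt4low replicates 1, 3 and 4. The closest arrays of the populations were 0.99 apart, and Wnt4low replicate 1 was again the lowest. This gave a log2 fold change of 1.73, a 3.32-fold difference (standard error 0.38, 95% confidence interval 0.80 to 2.66, unadjusted p = 0.00376, adjusted p = 0.159 by limma). The other probe read 10.74, 11.06 and 11.26 on the Wnt4hi arrays and 8.02, 9.93 and 9.90 on the Wnt4low arrays, and gave 1.74 (unadjusted p = 0.0172 by limma over all probes). Both probes of Myt1 gave the same order of populations and nearly the same size. Myt1 as a gene stayed past the unadjusted threshold under all 21 alternatives, from 1.23 with the replicate number as a block to 1.94 without Wnt4low replicate 3. The other probe passed in 15 of 17, was 1.11 without Wnt4low replicate 1, and lost the threshold without Wnt4hi replicate 4 (1.62, unadjusted p = 0.0538 by limma).

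St18 (chr1:6487231-6860940) did not pass the threshold by either probe. The brighter probe was at 10.17, 10.86 and 11.41 on Wnt4hi replicates 2, 3 and 4 and at 9.15, 10.19 and 10.47 on Wnt4low replicates 1, 3 and 4, so that Wnt4hi replicate 2 fell among the Wnt4low arrays. The log2 fold change was 0.88 (95% confidence interval -0.21 to 1.97, unadjusted p = 0.0971, adjusted p = 0.590 by limma) and 0.91 by the other probe, which was well above background on 2 of 3 Wnt4low arrays. Without Wnt4hi replicate 2 the brighter probe passed the unadjusted threshold, at 1.20, and without Wnt4low replicate 1 it was 0.49 and without Wnt4hi replicate 4 0.58, neither of which passed. The difference was above 0 in all 21 alternative settings and passed in 4.

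Glis3 (chr19:28258851-28680265), a zinc finger factor that acts on Neurog3 during development and on the insulin gene in β-cells, had 4 probes that disagreed in size. The brightest was at 10.68, 10.72 and 10.27 on Wnt4hi replicates 2, 3 and 4 and at 9.06, 9.80 and 10.36 on Wnt4low replicates 1, 3 and 4. The populations overlapped through Wnt4low replicate 4, and the log2 fold change was 0.81 (95% confidence interval -0.024 to 1.65, unadjusted p = 0.0550, adjusted p = 0.489 by limma). Without Wnt4low replicate 4 it passed the unadjusted threshold, at 1.12, and without Wnt4low replicate 1 it was 0.47 and did not pass. The other 3 probes gave 0.24, 1.24 and 1.04. The probe at 0.24, listed under another transcript of Glis3, passed in 0 of 17 alternative settings. The dimmest probe, at 1.04, was the only one of the 4 that was apart between the populations and under the threshold (unadjusted p = 0.00377 by limma over all probes), and it passed in all 17 alternative settings. All 4 were above 0. The mean of the 4 probes gave 0.83 and passed (unadjusted p = 0.00641 by limma), and in all Glis3 passed in 5 of 21 alternative settings, which were this mean, the filter on dim probes, both forms of the authors' values and the setting without Wnt4low replicate 4. The probe at 1.24 passed without Wnt4low replicate 3 (1.84) and was 0.72 without Wnt4low replicate 4. Where these probes lie within the transcripts is not given in the sources used here.

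**Figure D2:**
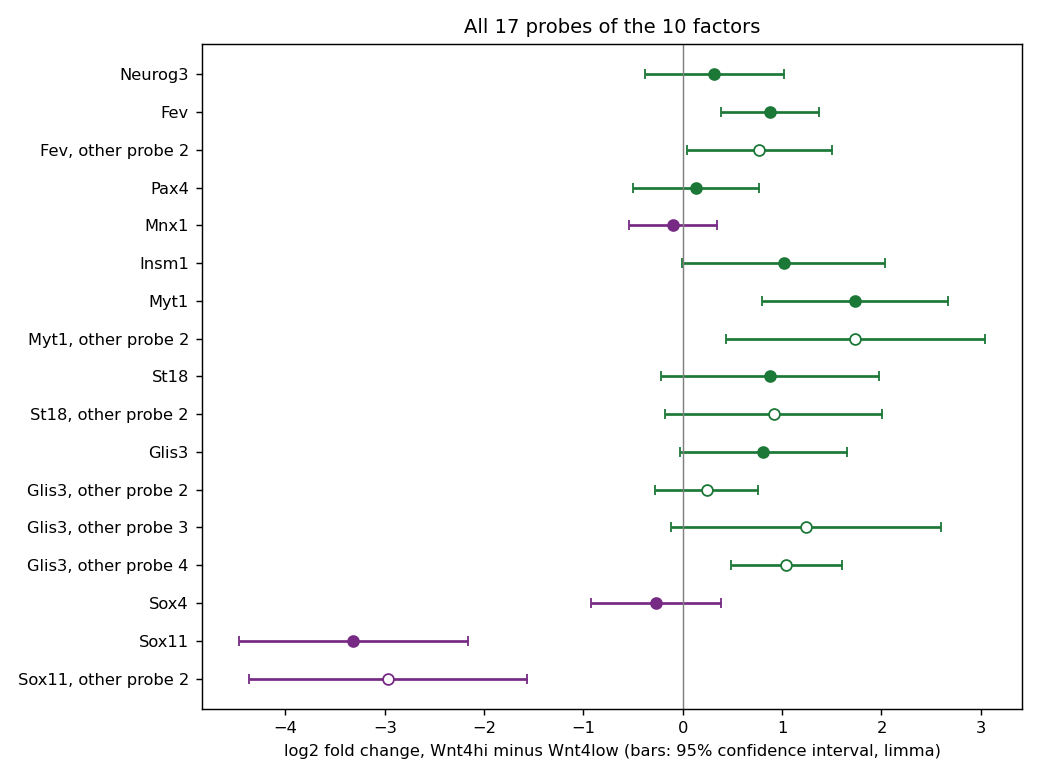
Log2 fold change, Wnt4hi minus Wnt4low, of all 17 probes of the 10 factors, with limma's 95% confidence interval over 3 arrays per population. Filled points are the probes that stand for a gene and open points its other probes. Both probes of Fev and both of Myt1 lie above 0, both of Sox11 lie below 0, and the 4 probes of Glis3 spread from 0.24 to 1.24.

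The SoxC factors Sox4 and Sox11 are high mobility group proteins with overlapping roles in many embryonic tissues, and Sox4 is used in endocrine differentiation. Sox4 (chr13:28948919-28953699) did not pass the test. It was at 11.23, 10.99 and 10.79 on Wnt4hi replicates 2, 3 and 4 and at 11.74, 11.28 and 10.80 on Wnt4low replicates 1, 3 and 4. Wnt4low replicate 4 was level with the lowest Wnt4hi array, and the log2 fold change was -0.27 (95% confidence interval -0.91 to 0.38, unadjusted p = 0.35, adjusted p = 0.813 by limma). Sox4 was below 0 in all 21 alternative settings but passed in 2, both of which used the authors' own processed values. There it was at -0.74, and at -0.83 without their Wnt4hi replicate 2 column. When 1 array was left out it ran from -0.50 without Wnt4low replicate 4 to -0.037 without Wnt4low replicate 1.

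Sox11 (chr12:27334268-27342718), its close relative, was the factor with the largest difference and the only 1 of the 10 that was lower in Wnt4hi cells at the unadjusted threshold. Its log2 intensity was 7.81, 7.44 and 6.60 on Wnt4hi replicates 2, 3 and 4 and 11.42, 9.91 and 10.47 on Wnt4low replicates 1, 3 and 4. The lowest Wnt4low array was 2.09 above the highest Wnt4hi array. This was a log2 fold change of -3.32, a 9.95-fold lower intensity in Wnt4hi cells (standard error 0.47, 95% confidence interval -4.46 to -2.17, unadjusted p = 0.000371, adjusted p = 0.0630 by limma). The probe was well above background on 2 of 3 Wnt4hi arrays and on all 3 Wnt4low arrays. The other Sox11 probe read 7.46, 5.98 and 6.17 on the Wnt4hi arrays and 10.17, 8.49 and 9.86 on the Wnt4low arrays. It was well above background on 0 of 3 Wnt4hi arrays, so it gives a bound, at least 4.44-fold lower in Wnt4hi cells (measured log2 fold change -2.97, adjusted p = 0.115 by limma over all probes). As a gene, Sox11 stayed past the unadjusted threshold under all 21 alternatives, with values from -4.0 to -2.91. It passed after adjustment in 4 of them, with cyclic loess (adjusted p = 0.0490), with dim probes left out (0.0238) and in the authors' own values with and without their Wnt4hi replicate 2 column (0.0149 and 0.0332), and over all 21 the adjusted p ran from 0.0149 to 0.355. The 2 SoxC genes were not tested against each other.

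The Wnt4low fraction held more signal from endothelial and some other cells that are not endocrine, and the endothelial values moved with Sox11. All 10 endothelial markers were lower in Wnt4hi cells at the unadjusted threshold, beside 5.53% of all features. After adjustment 7 of them were lower, beside 0.406% of all features. Their median log2 fold change was -3.63. Their summed linear intensity ranged from 4183 to 6207 over the Wnt4hi arrays and from 32792 to 61823 over the Wnt4low arrays. Tie1 and Tek, receptors of endothelial cells, were well above background on 0 of 3 Wnt4hi arrays, and were at least 12.3-fold and 7.59-fold lower there. Kdr, the main receptor for vascular endothelial growth factor, differed by -3.96 (adjusted p = 0.0189 by limma), though across all features 0 to 9 genes toward Wnt4low passed adjustment when any 1 array was left out. The part of these cells in the Sox11 difference was not tested.

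Markers of other cell types were counted in the same way, beside 5.06% of all features higher and 5.53% lower. Of 10 mesenchymal and pericyte markers, 7 were lower in Wnt4hi cells at the unadjusted threshold, with summed intensities of 35440 to 67855 in Wnt4hi and 83532 to 110660 in Wnt4low arrays. Of 6 autonomic neuron markers 3 were lower, with summed intensities of 3404 to 4431 and 5506 to 8026. Among these were Prph, an intermediate filament of peripheral neurons (-1.85), and Phox2a (-0.97, named after its value was seen). Phox2a was well above background on only 1 of 3 Wnt4hi arrays. Th and Dbh, enzymes of catecholamine synthesis, differed by 0.36 and 0.30 and did not pass. Chrna3 was well above background on 0 of 6 arrays. Of 10 leukocyte markers 5 were lower, and of 8 cell cycle genes 6 were lower. For the remaining lists most members passed in neither direction. These were the Schwann cell and neural crest markers (1 of 7 lower), the acinar markers (1 of 9 higher and 1 lower) and the duct markers (1 of 7 lower), and single calls in lists of this size say nothing about the list. Their part in the Sox11 difference was likewise not tested.

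**Figure D3:**
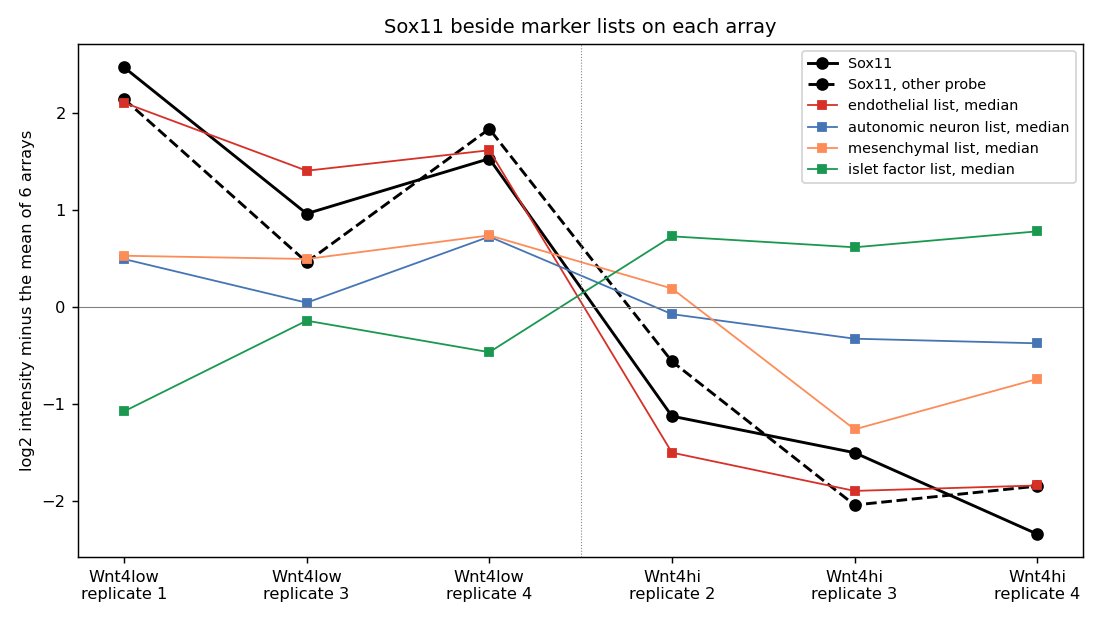
Log2 intensity minus the mean of the 6 arrays for both Sox11 probes (black) and for the median gene of 4 marker lists on each array, where the lines only join points of 1 series and the arrays have no order. The first Sox11 probe (solid line) ranges from 0.96 to 2.48 on the Wnt4low arrays and from -2.34 to -1.13 on the Wnt4hi arrays, and the endothelial median from 1.41 to 2.11 and from -1.90 to -1.50. The other Sox11 probe (dashed line) is likewise above 0 on the Wnt4low arrays and below 0 on the Wnt4hi arrays. The mesenchymal median ranges from 0.50 to 0.74 on the Wnt4low arrays and from -1.26 to 0.19 on the Wnt4hi arrays. The autonomic neuron median ranges from 0.045 to 0.73 and from -0.37 to -0.073. The islet factor median is below 0 on the 3 Wnt4low arrays and above 0 on the 3 Wnt4hi arrays.

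The close relatives of the factors, genes of the same families, were read as well. Of 9 relatives, 0 were higher in Wnt4hi cells and 2 were lower, beside 5.06% and 5.53% of all features. The 2 were Erg and Fli1, both known from blood vessels and blood cells. Both were named after their values were seen. Erg had a log2 fold change of -1.64 (adjusted p = 0.0671 by limma). Fli1 was well above background on 0 of 3 Wnt4hi arrays and was at least 3.25-fold lower there. Their direction is opposite to that of Fev, their relative in the ETS family. Among the others, Sox12, the remaining SoxC gene, differed by 0.081, Neurog1 by 0.14, Myt1l by 0.086 and Glis2 by -0.38, and none of these 4 passed the threshold.

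Of the wider Neurog3 state, 14 genes that accompany Neurog3 in progenitors, 11 passed the unadjusted threshold in neither direction. In Wnt4hi cells 2 were higher and 1 was lower, beside 5.06% and 5.53% of all features, and the median log2 fold change was 0.17. The genes that passed were Tox3, a high mobility group protein (1.07), Btbd17 (1.28) and Mfng, which modifies Notch receptors (-0.89). Btbd17 and Mfng were named after their values were seen. Tox3 was 0.70 without Wnt4low replicate 1 and lost the threshold without Wnt4hi replicate 4 (0.98). Mfng passed in 11 of 21 alternative settings and was -0.58 without Wnt4low replicate 1. Hes6, a target of neurogenins, differed by 0.34, Gadd45a by 0.30 and Btg2 by 0.0059, and these did not pass.

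Of 12 factors of the trunk epithelium, from which Neurog3 cells arise, 9 passed in neither direction, 1 was higher and 2 were lower in Wnt4hi cells, beside the same shares of all features, and the median was 0.17. Foxa2, a forkhead factor kept in islet cells, was higher by 1.49 (unadjusted p = 0.00171 by limma). Hes1, the Notch target that holds Neurog3 down, was lower by a log2 fold change of -0.85 (unadjusted p = 0.0195 by limma). Hes1 was -0.56 without Wnt4hi replicate 3, and lost the threshold without Wnt4low replicate 1 (-0.79) or Wnt4low replicate 3 (-0.82). The other gene that was lower, named after its value was seen, was Spp1 (-2.16), a secreted phosphoprotein that duct cells express. Notch2 differed by -0.93 and did not pass, but was -1.44 and under the unadjusted threshold without Wnt4low replicate 1.

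Of 13 further islet transcription factors, 11 were higher in Wnt4hi cells and 1 was lower, beside 5.06% and 5.53% of all features. Their median log2 fold change was 1.53. Pdx1 was higher by 1.84, Nkx2-2 by 1.62 and Neurod1, a direct target of Neurog3, by 1.54. Isl1 was higher by 1.11 and passed adjustment (adjusted p = 0.0435 by limma), though it passed in 8 of 21 alternative settings and 0 features toward Wnt4hi passed when any 1 array was left out. Mafa, the factor of mature β-cells, differed by -0.051 and did not pass. Hhex, a factor of δ-cells, was lower (-1.75) and was named after its value was seen. The summed intensity of these factors was 103310 to 107870 in Wnt4hi and 51870 to 81548 in Wnt4low arrays. Such a sum gives most weight to the brightest probes, and Mafa was the brightest. The median of mean-centred values over these factors ranged from 0.62 to 0.78 on the Wnt4hi arrays. On the Wnt4low arrays it ranged from -1.08 to -0.14. Markers of β-cells (6 of 10) and α-cells (3 of 6) were likewise higher in Wnt4hi cells, with 0 lower. Delta, PP and epsilon cell markers went both ways, with 2 of 5 in each direction. The same shares of all features, 5.06% higher and 5.53% lower, stand beside these counts. As islet markers, Ins1 and Gcg were well above background on all 6 arrays. Wnt4 itself was at 10.83 ± 0.34 (SD, n = 3) in Wnt4hi and 9.76 ± 0.40 (SD, n = 3) in Wnt4low cells. These islet values moved with Myt1 and Fev, and their part in those differences was not tested.

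**Figure D4:**
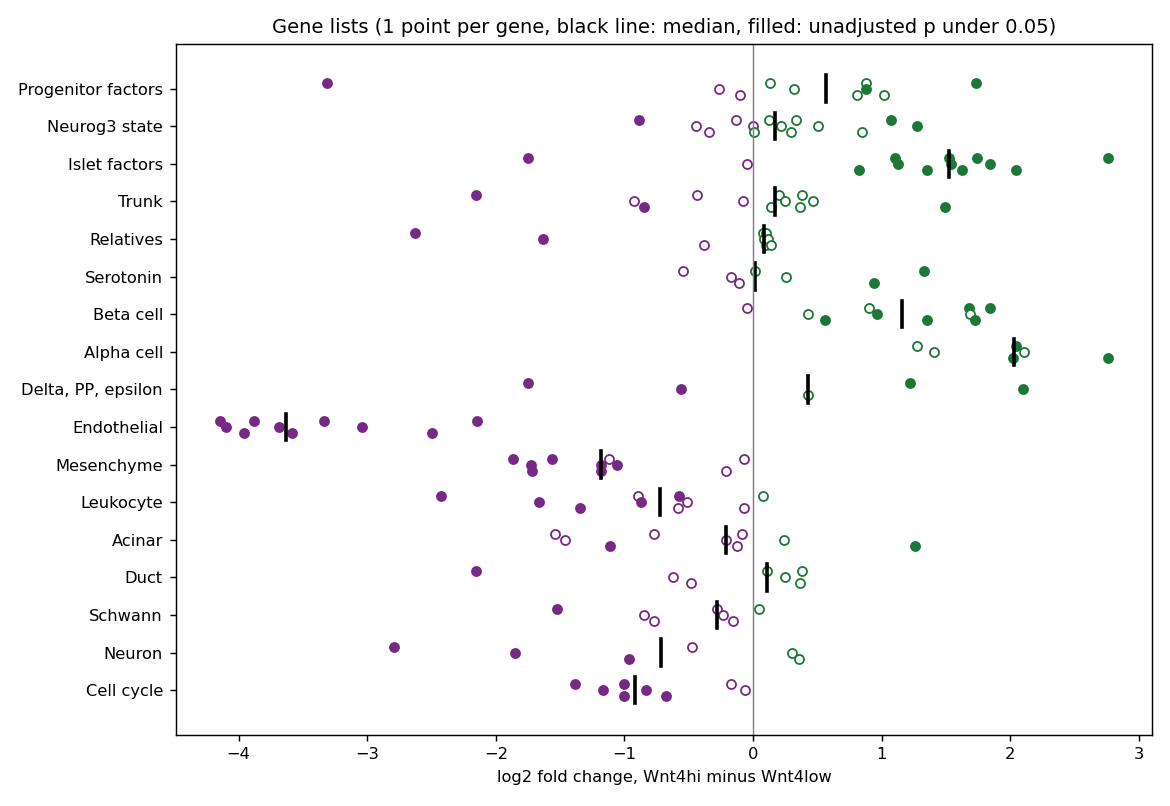
Log2 fold change, Wnt4hi minus Wnt4low, of every gene in the list of progenitor factors and in 16 further lists, with 1 point per gene, filled where limma's unadjusted p is under 0.05, and a black line at each list's median. The progenitor factors spread from -3.32 (Sox11) to 1.73 (Myt1), whereas 11 of 13 islet factors are filled above 0 and all 10 endothelial markers are filled at or below -2.15.

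Since Fev specifies serotonin neurons, 7 genes of serotonin synthesis and handling were read as well. Of these, 2 were higher in Wnt4hi cells and 0 were lower, beside 5.06% and 5.53% of all features. The median log2 fold change of the list was 0.016. Ddc, the decarboxylase that also makes dopamine, was higher by 1.33 and Gch1, which makes the cofactor of tryptophan hydroxylase, by 0.94. Ddc lost the unadjusted threshold without Wnt4hi replicate 2 (1.17), without Wnt4hi replicate 4 (1.22), without Wnt4low replicate 1 (0.92) and without Wnt4low replicate 4 (1.34). Tph1, the hydroxylase of the gut and islet, differed by 0.26 and Lmx1b, a partner of Fev in the brain, by -0.17, and neither passed. On 0 of 6 arrays was Tph2, the neuronal hydroxylase, well above background.

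Across the arrays the factors did not move as 1 block. Wnt4low replicate 1 was the lowest of the 6 arrays for 6 of the 10 factors (Fev, Insm1, Pax4, St18, Myt1 and Glis3) and the highest for the other 3 that were not Neurog3 (Sox4, Sox11 and Mnx1). That array also had the highest summed intensity of endothelial markers and the lowest of islet factors. Its part in these differences is given by the values without it, which kept the sign for 9 of the 10 factors, all but Mnx1.

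Genes whose profile over the 6 arrays lay closest to a factor were found by the root mean square difference of mean-centred log2 values, among 16154 genes that were well above background on all 6 arrays. For Myt1 these were Camk2n2, an inhibitor of calmodulin-dependent kinase (0.095), Cerkl (0.12) and the islet factor Nkx2-2 (0.20). For Insm1 they were Tob1, an antiproliferative protein (0.18), Dnajc6 (0.18) and Tmem50b (0.19). For Fev they were Slc11a2, an iron transporter (0.063), Mageh1 (0.10) and the calcium pump Atp2a3 (0.10). The distances are descriptions over 6 arrays that share 2 populations.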

How the data were processed

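RNA of sorted islet cells was amplified with a whole-transcriptome kit, labelled with Cy5 and hybridised to 6 one-color Agilent mouse arrays on 1 slide, scanned once. The authors deposited scanner output with spot and local background intensities, not normalized, from Feature Extraction (9.1 in the submitters' processing notes, 12.0.1.1 in the file headers). They also deposited 36693 normalized log2 values per array. The columns of that table had medians of 8.91 in all 6 and followed the scanner arrays with slopes of 0.86 to 0.90, so its scale is log2 and its direction that of the arrays. Its centring and how it treats probes are not known here. After each gene's mean was removed, its column for Wnt4hi replicate 2 correlated at 0.28 with the array of that label, and the others at 0.88 to 0.90. That column correlated slightly more, at 0.30, with the array of Wnt4hi replicate 3, and which sample it holds is not known here. The authors' table served as an alternative only, with and without that column.

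Median spot intensities were corrected with limma 3.58.1 (R 4.3.3) by normexp at an offset of 50, outlier spots (50 to 141 per array) were left out, and log2 values were normalized by quantiles. Of 59305 spots that are not controls, 70.5% to 79.5% were well above background, the median intensity was 10.8 to 15.6 times the local background, and 0 spots were saturated. Spots of 1 probe were averaged. Of 35886 probes with a RefSeq-type name, 32994 matched the RefSeq table of GRCm38.p6. That table gave symbols and gene coordinates, and the array design itself is older. Wnt4hi and Wnt4low were compared with lmFit and eBayes without covariates, with Benjamini-Hochberg adjustment over 45616 features, or over 56605 probes for second probes. A bound sets the mean of the brighter population against, on each dim array, the higher of the probe's value and the lowest signal well above background. The calculation was tested on simulated data.

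The members and lists were chosen with earlier results of these data known. The genes named are all 10 factors, of each list described by name the 4 brightest genes and any past adjustment, the 3 nearest profiles of the 3 factors that differed most among those above background on all arrays, and those marked as named after their values were seen. Wnt4, Ins1, Gcg and Tie1 were added as checks. Results for a few genes of the lists are not reported here. Alternatives were tried for the test, the background correction, the normalization, the replicate block, the treatment of dim, outlying and multiple probes, the authors' values and the removal of any 1 array.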

Additional observations from a re-analysis of the deposited data

How the results depend on the processing

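Of the 10 factors, Fev, Myt1 and Sox11 kept their direction and the unadjusted threshold in all 21 alternatives. Neurog3, Insm1, St18, Glis3 and Sox4 kept their direction. Pax4 ran from -0.078 to 0.33 when 1 array was left out, below 0 without Wnt4hi replicate 4. Mnx1 turned to 0.64 with the authors' values, 0.40 with those values without Wnt4hi replicate 2 (chosen after seeing the data) and 0.098 with the replicate block, and ran from -0.22 to 0.016 when 1 array was left out, above 0 without Wnt4low replicate 1. The number of factors higher at the unadjusted threshold was 4 with the filter on dim probes and 4 with the mean of probes. It was 5 with the authors' values with or without that column, and 2 to 4 when 1 array was left out. Over all features, 1853 were higher with the filter, 2385 with the mean of probes and 1961 with the authors' values. That number was 1861 without the column and 1617 to 2410 when 1 array was left out, beside 2306 in the main setting. The filter and the authors' values hold fewer features, so these counts are not shares of the same total. The number lower was 2 with the authors' values, with or without the column. There 2539 and 2225 of all features were lower, beside 2522 in the main setting. The number past adjustment was 1 with cyclic loess, the filter and either form of the authors' values. Among all features, 16 were higher and 185 lower after adjustment in the main setting. These became 79 and 429 with the filter, 58 and 348 with the authors' values, and 28 and 288 without the column. They were 13 and 198 with cyclic loess, 0 and 0 with the methods' t-test, and 0 and 0 to 9 when 1 array was left out.

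Replicate numbers 3 and 4 occur in both populations. The correlation of deviations between same-numbered arrays was -0.03 for number 3 and 0.16 for number 4, so a pairing was not established. With the replicate block 4 factors were higher, beside 2082 of all features, and the median log2 fold change of the 10 factors was 0.31. With this block 0 features passed adjustment in either direction, and 4 arrays carry the comparison. Under it Notch2 passed the unadjusted threshold (-1.72), as did St18 (0.81) and Insm1 (0.79), Ddc (0.76) and Mfng (-0.35) did not, and Glis3 was at 0.41. With the block as random, 27 features were higher after adjustment.

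Genes near 0 turned sign. Btg2 was at -0.026 with the processed signal, -0.035 with the mean of probes and -0.027 with the authors' values. Mafa was at 0.11 and Myt1l at -0.0086 with cyclic loess. When 1 array was left out, Btg2 ran from -0.19 to 0.19, Mafa from -0.17 to 0.034, Myt1l from -0.43 to 0.43, Sox12 from -0.12 to 0.24 and Neurog1 from -0.018 to 0.34. The causes were not tested. The slide as a block was not run, since all arrays lie on 1 slide. Signal over background limits Sox11, whose Wnt4hi level is close to background.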
